A study of Mus musculus with 4 samples.

Results

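*Epor*, *Slc38a5*, *Acp5*, *Cited4*, *Blvrb*, *Tfrc*, *Csf2rb* and *Hemgn* are genes of erythroid progenitors that encode receptors, a transporter, redox and other enzymes and regulators. They were picked because several of them were higher on both arrays labelled *Dyrk2*-/-, so that every difference between the genotypes given here is a description of the values that chose the genes, with no test, and supports nothing. The 8 genes are 8 of 37325 named genes on the array, and they have 14 of the 56604 probes with values. All 8 genes were well above background on at least 1 array at their brightest probe, and 7 of them on all 4 arrays. Of the 14 probes, 13 were well above background on at least 1 array and 8 on all 4.

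The study made mice without *Dyrk2*, which encodes a protein kinase, and asked which genes differ in the embryo at the start of organ formation. RNA of whole C57BL/6 embryos was hybridized to 4 one-colour Agilent arrays on 1 slide, with 1 array for each of 4 groups: wild type (WT) at embryonic day 8.5 (E8.5), *Dyrk2* knockout (*Dyrk2*-/-) at E8.5, WT at E10.5 and *Dyrk2*-/- at E10.5. The mutant alleles are small deletions made with the CRISPR/Cas9 nickase, and the study kept several deletion lines. Neither the line used for the arrays nor the number of embryos behind each RNA is given. The WT embryos carry no engineered allele, and no group was treated.

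A level is the log2 of the background-subtracted intensity of a probe minus the 75th percentile of its array, so that 0 is the 75th percentile, and levels of different probes are not compared with each other. The brightest gene of a list, or the one that leads it, is named by the brightness of its probe alone, which does not rank transcripts by abundance. Of 56604 probes, 31370 were well above background on the WT array of E8.5 and 30226 on the E8.5 array labelled *Dyrk2*-/-, 31818 and 31943 on the E10.5 arrays in the same order, and 0 spots were saturated. From 297 probes printed several times, the spread of a log2 difference between the genotypes was 0.15 for the E8.5 pair and 0.11 for the E10.5 pair. The same spread between the stages was 0.12 in WT and 0.14 in the pair labelled *Dyrk2*-/-. It covers spots and not embryos, and with 1 array per group no value has a replicate and no p-value was computed between genotypes. The number of arrays limits the precision of every value below.

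*Dyrk2* itself was read first. At its brightest probe, the E8.5 level was 0.06 on the WT array and 0.76 on the array labelled *Dyrk2*-/-, and the E10.5 levels were −0.31 and 0.34. Both arrays labelled *Dyrk2*-/- were thus the higher of their pair, and the log2 difference lay between 0.15 and 0.70 at E8.5 over the scalings tried, and between 0.52 and 0.81 at E10.5. The other *Dyrk2* probe, also well above background on every array, had E8.5 levels of −0.23 in WT and −0.20 on the array labelled *Dyrk2*-/-, and E10.5 levels of −0.28 and −0.00. It differed by 0.03 at E8.5, less than the spread between spots, which became −0.52 with the spike-in scaling and −0.23 without scaling, and by 0.28 at E10.5, higher under every scaling. On these arrays the transcript of the targeted gene therefore did not check the labels, and every direction between genotypes below rests on them. Other measurements of the study were not used here. Its relative *Dyrk3*, whose product acts late in red cell formation, had levels of 1.51, 1.60, 0.93 and 0.93 on the WT E8.5 array, the E8.5 array labelled *Dyrk2*-/-, the WT E10.5 array and the E10.5 array labelled *Dyrk2*-/-. Values of 4 arrays are given in this order throughout. As for the tissue, 8 of 8 heart markers were well above background on every array, and of 8 neural markers 7, 7, 8 and 8 were, as in a whole embryo. Of 8 globin genes measured, 5, 7, 8 and 8 were well above background, so that every array held globin signal, the WT E8.5 array in the fewest genes.

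Red cells of the mouse embryo form first in the blood islands of the yolk sac, enter the circulation once the heart beats, and mature in the bloodstream as one wave. Erythropoietin binds the receptor EPOR and signals through JAK2 and STAT5, and the definitive progenitors that follow this wave need it, while the cells of the wave depend on it only in part. Red cell precursors take up iron through the transferrin receptor to make heme, and as they mature they accumulate globin and membrane proteins under GATA1 and KLF1, and they carry enzymes that handle heme and oxidants.

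At E8.5, 6 of the 8 genes were higher on the array labelled *Dyrk2*-/- by 1.5-fold or more and 0 were lower, at their brightest probes, where 5.14% of 20848 genes were higher and 6.52% lower. At E10.5, 6 of the 8 were higher and 0 lower, where 3.5% of 21351 genes were higher and 4.22% lower. Past this fold at both stages were 6 of the 8 genes, and 0.547% of 19923 genes. Since the genes were picked on these contrasts, nothing is read from these counts. The median log2 difference of the 8 genes was 1.56 at E8.5, where that of all genes was −0.02, and 1.07 at E10.5, where it was −0.00. These medians were the same with *Csf2rb*, whose WT E8.5 value was near background, set at its bound. In bulk RNA of whole embryos, more cells of a type and more RNA per cell cannot be told apart, and this holds for every difference below.

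The scaling between arrays matters for small differences. Scaling by spike-in control probes moved the median difference of all genes by −0.55 at E8.5 and by 0.16 at E10.5, and leaving out the scaling moved it by −0.26 and −0.13. For the stages, the spike-in scaling moved the median by −0.07 in WT and 0.64 in the pair labelled *Dyrk2*-/-, and no scaling by 0.18 and 0.31. The spike-in scaling turned 1071 genes higher and 1359 lower at E8.5 into 291 and 9916, no scaling into 512 and 3206, and the normexp background correction into 272 and 344. At E10.5, 748 genes higher and 901 lower became 1251 and 553 with the spike-in scaling, 568 and 1398 without scaling, and 185 and 146 with normexp. The 6 genes past 1.5-fold stayed higher at both stages under each of these settings.

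**Figure D1:**
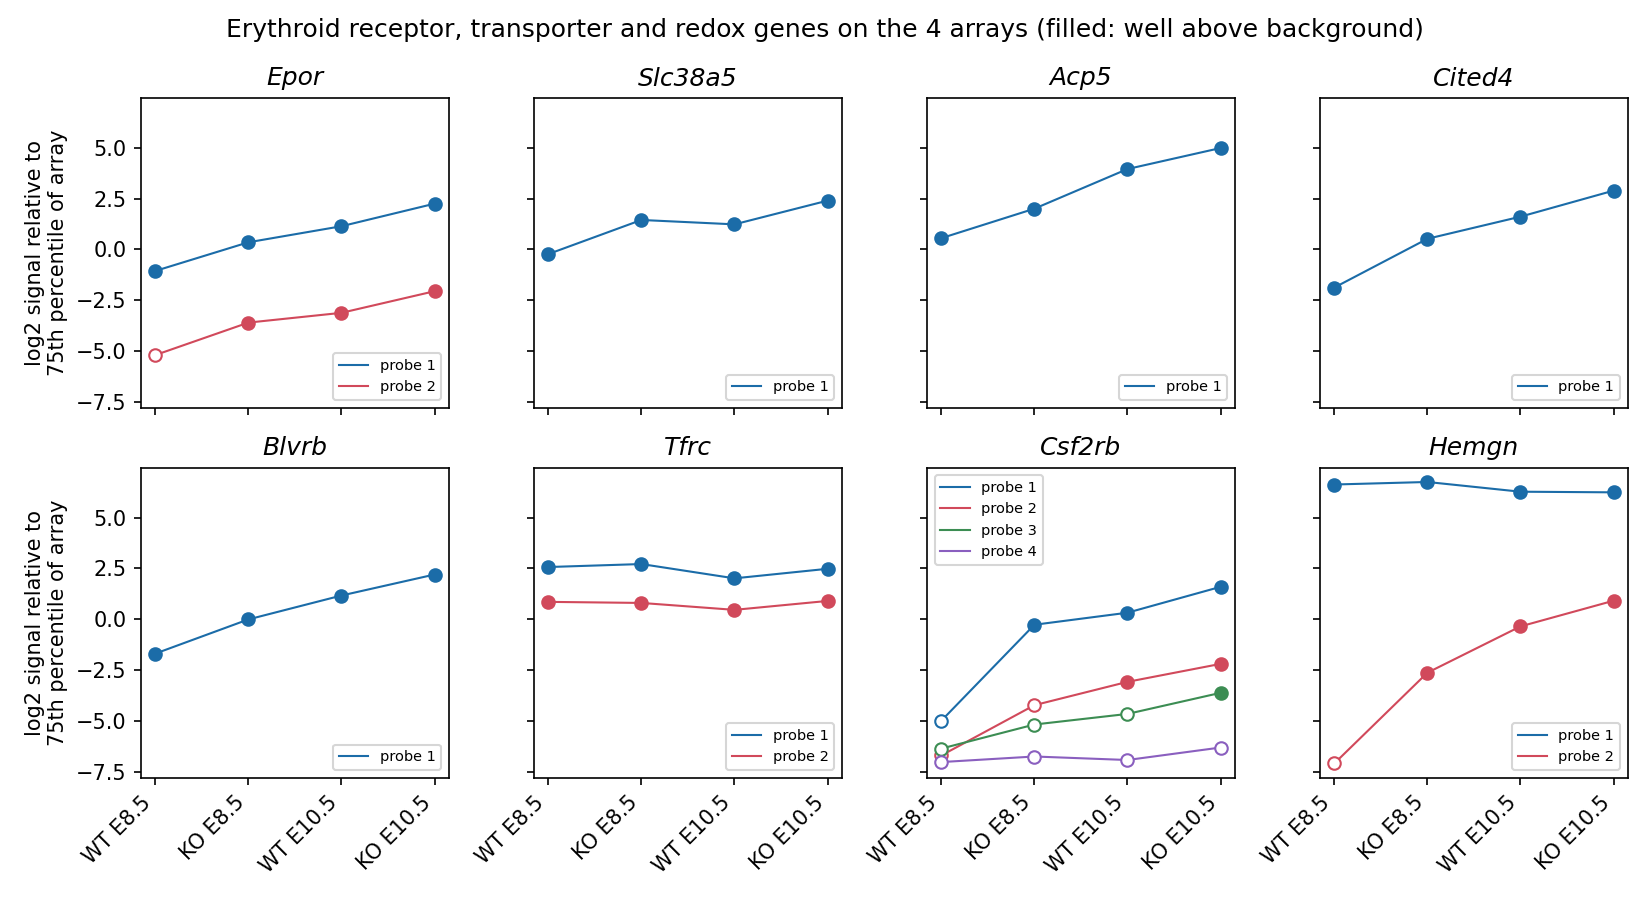
Level of each probe of the 8 genes on the 4 arrays (log2 relative to the 75th percentile of the array; KO marks the arrays labelled Dyrk2−/−, and probes are numbered from the brightest). Filled points are well above background and open points are not. Levels ascend from the WT E8.5 array to the E10.5 array labelled Dyrk2−/− for Epor, Acp5, Cited4, Blvrb, probe 1 of Csf2rb and probe 2 of Hemgn, and stay between 2.01 and 2.72 for probe 1 of Tfrc.

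*Epor* encodes the erythropoietin receptor. Its brightest probe (NM_010149, chromosome 9 of mm9, 21763422 to 21763481) had levels of −1.05, 0.35, 1.14 and 2.25. The WT E8.5 array was the lowest and the E10.5 array labelled *Dyrk2*-/- the highest, and each step in this order exceeded the spread between spots. The array labelled *Dyrk2*-/- was 2.65-fold higher at E8.5 and 2.15-fold at E10.5. The other *Epor* probe had levels of −5.19, −3.59, −3.11 and −2.05, in the same order, but was not well above background on the WT E8.5 array. A fold against such a value is a bound, taken from the dimmest probe of the same array that still counts as well above background, so that this probe was at least 2.34-fold higher at E8.5 and 2.09-fold higher at E10.5. Its annotated span of 145 bases exceeds its 60 bases, so that it crosses a splice junction or a gap in the alignment.

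The ligand and the signalling chain of *Epor* were read beside it. *Epo*, which encodes erythropoietin, was near background on all 4 arrays. *Jak2*, which encodes the kinase bound to the receptor, had levels of −0.37, −0.39, −0.27 and −0.01. The 4 brightest genes of the pathway were *Bcl2l1*, *Pim1*, *Socs3* and *Socs2*, which encode a survival factor, a kinase and feedback inhibitors. The levels of *Pim1* were 3.30, 3.80, 3.08 and 3.45, those of *Bcl2l1* 4.36, 4.32, 4.18 and 4.08. *Socs3* had levels of 1.30, 1.37, 1.47 and 1.61, and *Socs2* of 1.92, 1.66, 0.70 and 0.64. Of these 4, *Socs3* ascended over the arrays in the order of *Epor*, in small steps of which the E8.5 genotype step reverses with the spike-in scaling and without scaling, and the others did not. Of the pathway list without *Epor*, 0 of 16 genes compared at E8.5 were 1.5-fold or more higher and 1 was lower, and at E10.5 2 of 17 were higher and 0 lower, of which normexp left 0 higher and no scaling 1. The median difference was 0.02 at E8.5, which became −0.53 with the spike-in scaling, where 6 genes were lower, and 0.10 at E10.5, which became −0.03 without scaling.

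*Csf2rb* encodes the common beta chain of the receptors for interleukin 3, interleukin 5 and granulocyte-macrophage colony-stimulating factor. Its brightest probe (NM_007780, chromosome 15 of mm9, 78181168 to 78181227) had levels of −4.98, −0.27, 0.33 and 1.60. The WT E8.5 value was not well above background, and the other 3 arrays were far above it. The signal was at least 23.5-fold higher on the E8.5 array labelled *Dyrk2*-/- and 2.41-fold higher at E10.5. A dimmer probe, which the annotation also gives to the transcript of *Csf2rb2*, was not well above background at E8.5 on either array, and had levels of −3.07 and −2.19 at E10.5, a fold of 1.84. Another probe, with a span of 263 bases, reached such a signal only at E10.5 on the array labelled *Dyrk2*-/-, at −3.61, and was at least 2.05-fold higher there than in WT. The last of its 4 probes, for the transcript AK133420, was near background on all 4 arrays.

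*Csf2rb2*, the neighbouring copy of *Csf2rb* that serves interleukin 3 alone, had levels of −4.89, −1.64, −1.11 and 0.27 at a probe of its own, in the same order as *Csf2rb*. It was at least 9.07-fold higher on the E8.5 array labelled *Dyrk2*-/- and 2.60-fold higher at E10.5. The alpha chains that pair with the beta chain did not share this order. *Csf2ra* had levels of 1.39, 1.40, 2.21 and 2.08, and *Il3ra* of 0.72, 0.98, 0.69 and 0.87. *Il5ra* and the ligand genes *Csf2*, *Il3* and *Il5* were not well above background on any array. Of the 3 family members compared 1 was higher and 0 lower at each stage, with medians of 0.26, which became −0.29 with the spike-in scaling, and 0.19. Of 12 other receptor and ligand genes of blood progenitors, *Csf3r*, *Acvr2b*, *Igf1r* and *Kit* were the brightest. The level of *Kit*, which encodes the receptor for stem cell factor, was 1.62, 2.01, 0.80 and 0.73. In that list 0 of 10 genes compared were higher and 1 lower at E8.5, and 0 of 12 higher and 1 lower at E10.5, with medians of 0.02 and 0.02 that became −0.53 with the spike-in scaling at E8.5 and −0.12 without scaling at E10.5. The lower genes became 4 at E8.5 and 0 at E10.5 with the spike-in scaling, 1 and 2 without scaling, and 0 at both stages with normexp.

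*Tfrc* encodes the transferrin receptor, which brings iron into the cell, and was 1 of the 2 genes that stayed under 1.5-fold. Its brightest probe (NM_011638, chromosome 16 of mm9, 32632255 to 32632314) had levels of 2.57, 2.72, 2.01 and 2.48. The genotype difference was 0.15 at E8.5, no larger than the spread between spots, and it became −0.40 with the spike-in scaling and −0.11 without scaling. At E10.5 it was 0.47 and ran from 0.34 to 0.63 over the alternatives. The other probe had levels of 0.86, 0.81, 0.47 and 0.90, with the WT E10.5 array the lowest. *Trf*, which encodes transferrin, had levels of 1.41, 0.97, 2.07 and 1.68. In each pair the array labelled *Dyrk2*-/- was the lower for *Trf*, under all 6 scalings and corrections. The brightest genes of iron uptake and storage were *Ftl1*, *Pcbp1*, *Fth1* and *Snx3*. Levels of *Ftl1*, the ferritin light chain gene, were 7.54, 7.19, 7.57 and 7.58. Of 18 genes of this list 2 were higher and 0 lower at E8.5, and 2 were higher and 0 lower at E10.5, or 4 higher with the spike-in scaling. The medians were −0.12 and 0.17, and with the spike-in scaling 0 genes were higher and 11 lower at E8.5, without scaling 1 and 3.

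*Slc38a5* encodes a sodium-coupled transporter of glutamine and other amino acids. Its probe (NM_172479, chromosome X of mm9, 7857226 to 7857285) had levels of −0.23, 1.45, 1.23 and 2.40. Here the E8.5 array labelled *Dyrk2*-/- stood above the WT E10.5 array, unlike for *Epor*, though the spike-in scaling and no scaling reverse this step. The array labelled *Dyrk2*-/- was the higher of each pair, by 3.19-fold at E8.5 and 2.24-fold at E10.5. As *Slc38a5* is X-linked, sex was read beside it. *Xist* stood above background only at E10.5 on the array labelled *Dyrk2*-/-, at −0.37, while the Y-linked *Eif2s3y* had levels of 1.45, 1.14, 0.66 and −6.09, the last not well above background. The other Y-linked genes *Ddx3y*, *Kdm5d* and *Uty* were likewise well above background on the 3 arrays without *Xist*. The E10.5 genotype pair thus differed in sex and the E8.5 pair did not, and genotype and sex cannot be told apart at E10.5. The arrays labelled *Dyrk2*-/- also differ in sex between the stages, so that stage and sex cannot be told apart in that pair, and the stage test includes it.

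The relatives of *Slc38a5* were read beside it. *Slc38a1*, the brightest, had levels of 5.36, 5.46, 5.11 and 4.99, *Slc38a9* 4.54, 4.38, 4.20 and 4.65, *Slc38a2* 4.29, 4.47, 4.33 and 4.40, and *Slc38a4* 3.51, 3.58, 2.37 and 2.53. Of 9 family members compared, 1 was higher and 0 lower at E8.5, a call lost under all 5 other scalings and corrections, of which the spike-in scaling gave 1 lower. At E10.5 0 were higher or lower, and 1 was higher with the spike-in scaling. The median was 0.14 at E8.5, which became −0.41 with the spike-in scaling and −0.12 without scaling, and 0.15 at E10.5. Among 20 solute carriers and channels of red cells, led by *Slc2a1*, *Abcg2*, *Slc16a1* and *Slc3a2*, 2 of 17 compared were higher and 0 lower at E8.5, and 6 of 20 were higher and 0 lower at E10.5. At E8.5 the spike-in scaling gave 2 higher and 5 lower, and no scaling 2 and 3, and at E10.5 the higher ones numbered from 4 to 9 over the scalings and corrections. Their medians were 0.10, which became −0.45 with the spike-in scaling and −0.16 without scaling, and 0.27. The glucose transporter gene *Slc2a1* had levels of 6.48, 6.57, 5.09 and 5.30.

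*Acp5* encodes tartrate-resistant acid phosphatase, an iron-containing enzyme best known from osteoclasts and macrophages. Its probe (NM_001102405, chromosome 9 of mm9, 21931190 to 21931249) had levels of 0.55, 2.0, 3.95 and 4.98. Both E10.5 arrays stood above both E8.5 arrays, and the array labelled *Dyrk2*-/- was the higher of each pair, 2.73-fold at E8.5 and 2.04-fold at E10.5. Of the 5 other acid phosphatase genes, *Acp1*, *Acp6* and *Acp2* were well above background. The levels of *Acp1* were 4.10, 3.90, 3.70 and 3.68. Among these 3 genes 0 were past 1.5-fold between genotypes at either stage, and the medians were −0.12 for E8.5 and −0.02 for E10.5, the latter of which became 0.15 with the spike-in scaling. At E8.5 this scaling made 2 of the 3 lower, with a median of −0.67. As *Acp5* marks macrophages too, their markers were read beside it. Of 14 macrophage markers 6, 4, 14 and 14 were well above background, with summed levels of 1.55, 1.52, 6.68 and 5.15 times the 75th percentile, led by *Csf1r*. The defining marker *Adgre1* was not well above background on either E8.5 array, and had levels of −2.97 and −3.60 at E10.5. Of the macrophage list, 0 of 6 genes were higher and 0 lower at E8.5, and 0 of 14 higher and 4 lower at E10.5, with medians of −0.23 and −0.40, the first becoming 0.03 with the normexp correction. The lower genes became 4 at E8.5 and 0 at E10.5 with the spike-in scaling, 3 and 6 without scaling, and 0 at both stages with normexp. Their part in the *Acp5* signal was not tested.

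*Cited4* encodes a transcriptional co-regulator that binds CBP and p300. Its probe (NM_019563, chromosome 4 of mm9, 120340245 to 120340304) had levels of −1.87, 0.52, 1.61 and 2.89. All 4 arrays were well apart, in the order of *Epor*. The array labelled *Dyrk2*-/- was 5.26-fold higher at E8.5 and 2.42-fold at E10.5. The 4 brightest of its relatives and partners did not share this order. *Cited1* had levels of 5.17, 4.84, 2.83 and 2.58, *Hif1a* 4.07, 3.71, 3.45 and 3.42, *Cited2* 4.07, 3.92, 2.96 and 3.06, and *Crebbp*, which encodes CBP, 2.81, 3.32, 3.14 and 3.10. Of 8 such genes 0 were past 1.5-fold between genotypes at either stage, and the medians were −0.13 at E8.5 and −0.05 at E10.5. With the spike-in scaling 5 of them were lower at E8.5, with a median of −0.67, and the E10.5 median became 0.11, and without scaling 1 was lower at E8.5.

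*Blvrb* encodes biliverdin reductase B, a flavin reductase of red cells. Its probe (NM_144923, chromosome 7 of mm9, 28250944 to 28251000) had levels of −1.68, −0.00, 1.17 and 2.20. The order was again that of *Epor*, and the array labelled *Dyrk2*-/- was higher by 3.20-fold at E8.5 and 2.04-fold at E10.5. *Blvra*, which encodes the reductase that makes bilirubin after birth, had levels of −1.92, −1.67, −0.79 and −0.55. *Hmox1*, which encodes the heme oxygenase that supplies biliverdin, had levels of 2.14, 2.09, 1.65 and 1.49. The brightest of the other redox genes were *Sod1*, *Prdx1*, *Prdx2* and *Gpx1*. *Prdx2*, the peroxiredoxin gene of red cells, had levels of 5.91, 5.25, 6.17 and 6.31, with the E8.5 array labelled *Dyrk2*-/- the lowest. *Gpx1* had levels of 5.44, 5.63, 5.62 and 6.04. Of 22 genes of heme degradation and redox 0 were higher and 1 lower at E8.5, which became 9 lower with the spike-in scaling, and 0 were higher or lower at E10.5. The medians were −0.00 at E8.5, which became 0.06 with quantile normalization and −0.55 with the spike-in scaling, and 0.07 at E10.5, which became −0.06 without scaling.

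*Hemgn* encodes hemogen, a nuclear protein of blood cells, and its 2 probes gave different answers. The brightest (NM_053149, chromosome 4 of mm9, 46407248 to 46407307) had levels of 6.62, 6.74, 6.27 and 6.24, with genotype differences of 0.12 at E8.5, which became −0.42 with the spike-in scaling, and −0.03 at E10.5, which became 0.13. The other (46407366 to 46407425) had levels of −7.08, −2.62, −0.35 and 0.92, from intensities of 2.90, 53.1, 348 and 762, and was not well above background on the WT E8.5 array. It was at least 4.59-fold higher on the E8.5 array labelled *Dyrk2*-/- and 2.40-fold higher at E10.5. The brightest probe ends in an uninterrupted GT repeat of 36 bases, and the other holds no such repeat. Bases 19 to 48 of each are printed to show where the repeat begins, with the repeat in capitals.
Hemgn probe 1: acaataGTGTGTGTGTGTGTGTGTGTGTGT
Hemgn probe 2: actgaaacactgcagcaatcactaaaattt
The array carries 37 probes with at least 12 TG units in a row, this one included. All 37 were well above background on all 4 arrays, with mean levels from 4.49 to 7.39 and a median of 6.31. The median differences of these 37 probes were 0.10 at E8.5 and −0.03 at E10.5 between genotypes, and −0.35 in WT and −0.50 in the pair labelled *Dyrk2*-/- between stages. The brightest *Hemgn* probe had 0.12, −0.03, −0.35 and −0.51, so that its values cannot be told apart from those of the repeat probes. With *Hemgn* read at its other probe, a choice made after the values were seen, 7 of the 8 genes were past 1.5-fold at each stage, and the medians were 1.68 at E8.5 and 1.14 at E10.5.

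**Figure D2:**
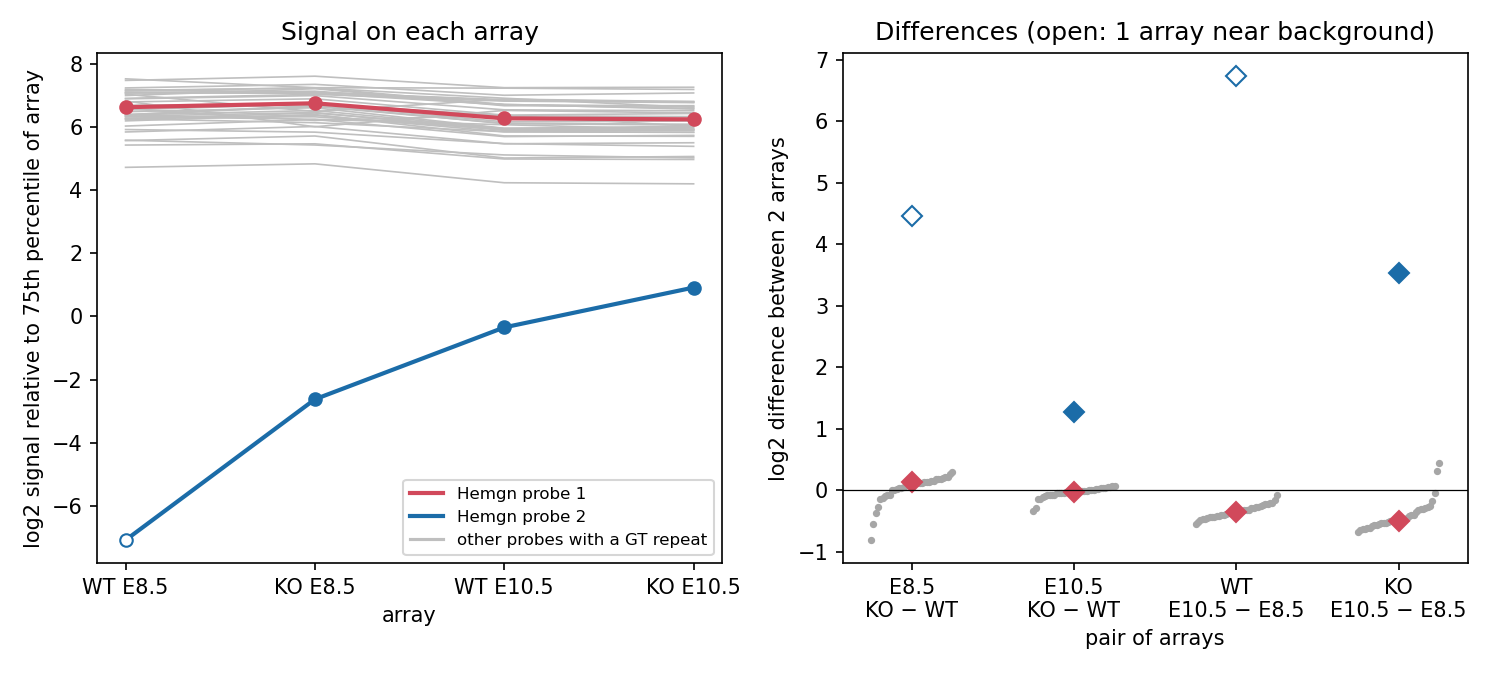
Left, level on each array of both Hemgn probes and of the other probes with at least 12 TG units (log2 relative to the 75th percentile; open point, not well above background). Right, log2 differences of the same probes between pairs of arrays, where open diamonds rest on a value near background and KO marks the arrays labelled Dyrk2−/−. In the right panel Hemgn probe 1 lies among the repeat probes and probe 2 does not. Levels of different probes in the left panel are not compared with each other.

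The step from E8.5 to E10.5 did not choose the genes. Both stage pairs share their arrays with the genotype differences that did, so that the counts below are not independent of that choice. In the WT pair, 6 of the 8 genes were higher at E10.5 by 1.5-fold or more and 0 lower, or 1 lower, *Tfrc*, with the spike-in scaling, where 18.8% of 21788 genes were higher and 17.5% lower. In the pair labelled *Dyrk2*-/-, 6 were higher and 0 lower, where 17.5% of 21405 genes were higher and 13.9% lower. The median difference was 2.52 in WT and 1.88 in the pair labelled *Dyrk2*-/-, beside −0.08 and −0.05 over all genes. No scaling turned the 4099 genes higher and 3820 lower in WT into 5256 and 2598, and the 3755 and 2982 of the other pair into 6066 and 1560, or into 10720 and 985 with the spike-in scaling. The spike-in scaling gave 3712 and 4496 in WT. With normexp the counts were 2259 and 2493 in WT and 1760 and 1743 in the other pair. Both E10.5 arrays stood above both E8.5 arrays for 5 of the 8 genes, as for 30.6% of 22276 genes, and below them for 2, as for 40.2%. The 5 were *Epor*, *Acp5*, *Cited4*, *Blvrb* and *Csf2rb*, and all 5 ascended from WT to the array labelled *Dyrk2*-/- within each stage.

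In folds, *Cited4* was 11.2-fold higher at E10.5 in WT and 5.15-fold in the pair labelled *Dyrk2*-/-. *Acp5* was higher by 3.39 log2 units in WT and 2.98 in the pair labelled *Dyrk2*-/-. For *Blvrb* the folds were 7.22 and 4.60, and for *Epor* 4.58 and 3.72. The *Slc38a5* signal was 2.75-fold and 1.93-fold higher. *Csf2rb* was at least 35.4-fold and 3.64-fold higher, and *Hemgn* at its other probe at least 22.2-fold and 11.6-fold. These WT bounds do not carry over to the normexp correction. With it the stage estimate over both genotypes fell from 3.58 to 2.27 for *Csf2rb* and from 5.13 to 2.64 at the other *Hemgn* probe. In each of these genes the step was smaller in the pair labelled *Dyrk2*-/-, by log2 differences from −0.30 for *Epor* to −1.12 for *Cited4* where all arrays were well above background. For *Csf2rb* and the other *Hemgn* probe the size of this difference is not given, since the WT fold is a bound. This is the same quantity as the smaller genotype difference at E10.5 than at E8.5, and it was not tested. With the spike-in scaling it reversed for *Epor*, *Slc38a5*, *Acp5* and *Blvrb*.

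The stage effect over both genotypes was tested with limma, with the genotype as a block, over the 32289 probes that 2 or more arrays showed well above background. It has 1 residual degree of freedom, which measures how the genotype effect differs from stage to stage, so that the choice of the genes touched its error, though not the stage estimate. By borrowing variance from all probes limma raised the degrees of freedom to 9.07, and its p-values do not measure spread between embryos. Without a filter on dim probes and with the spike-in scaling the borrowing was complete. With Benjamini-Hochberg adjustment over all probes, 6 of the 8 genes were higher at E10.5 at their brightest probe and 2 lower, where 15.7% of probes were higher and 19.6% lower. The split of 5062 probes higher and 6335 lower became 2095 and 538 with the spike-in scaling, 8758 and 3010 without scaling, and 3558 and 2879 without the intensity trend.

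*Acp5* rose by 3.19 log2 units (SE 0.14, limma, Benjamini-Hochberg adjusted p 8.87e-07), higher at E10.5 in 2 of 2 pairs. *Epor* rose by 2.05 (SE 0.14, limma, Benjamini-Hochberg adjusted p 1.09e-05) in 2 of 2 pairs. *Blvrb* rose by 2.53 (SE 0.17, limma, Benjamini-Hochberg adjusted p 1.03e-05) and *Cited4* by 2.92 (SE 0.23, limma, Benjamini-Hochberg adjusted p 2.23e-05), each in 2 of 2 pairs. These 4 genes passed the threshold under every alternative tried. *Csf2rb* rose by 3.58 (SE 0.59, limma, Benjamini-Hochberg adjusted p 0.00174) in 2 of 2 pairs, an estimate that rests on a WT E8.5 value near background. Without the intensity trend the limma adjusted p (Benjamini-Hochberg) of *Csf2rb* was 0.0629. Over the alternatives it ran from 9.10e-94, without a filter on dim probes, to 0.0629. *Slc38a5* rose by 1.20 (SE 0.15, limma, Benjamini-Hochberg adjusted p 0.000388) in 2 of 2 pairs, while the WT E10.5 array stayed below the E8.5 array labelled *Dyrk2*-/-, and sex differs within the pair labelled *Dyrk2*-/-. With the spike-in scaling the limma adjusted p (Benjamini-Hochberg) of *Slc38a5* was 0.148. Over the alternatives it ran from 3.11e-20, without a filter on dim probes, to 0.148.

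*Tfrc* fell by 0.39 (SE 0.13, limma, Benjamini-Hochberg adjusted p 0.0437) in 2 of 2 pairs at its brightest probe. It missed the threshold under 7 of 9 alternatives, with limma adjusted p (Benjamini-Hochberg) from 0.00531 to 1, and at its other probe the estimate was −0.15 (limma, Benjamini-Hochberg adjusted p 0.491), lower in 1 of 2 pairs. The repeat probe of *Hemgn* fell by 0.43 (SE 0.11, limma, Benjamini-Hochberg adjusted p 0.0168) in 2 of 2 pairs, with limma adjusted p (Benjamini-Hochberg) from 0.0172 to 1 over the alternatives. Its other probe rose by 5.13 (SE 0.56, limma, Benjamini-Hochberg adjusted p 0.000168) in 2 of 2 pairs, again with a WT E8.5 value near background. The direction of *Hemgn* thus depended on the probe. Among the named partners, *Csf2rb2* rose by 2.84 (limma, Benjamini-Hochberg adjusted p 0.000366) and *Blvra* by 1.13 (limma, Benjamini-Hochberg adjusted p 0.000677), each in 2 of 2 pairs, where the *Csf2rb2* estimate rests on a WT E8.5 value near background. *Kit* at its brightest probe fell by 1.05 (limma, Benjamini-Hochberg adjusted p 0.000751) and *Cited1* by 2.30 (limma, Benjamini-Hochberg adjusted p 1.79e-06), also in 2 of 2 pairs. Other *Kit* probes had estimates of −0.38 (limma, Benjamini-Hochberg adjusted p 0.241) and −0.57 (limma, Benjamini-Hochberg adjusted p 0.180), which missed the threshold. *Jak2* had an estimate of 0.24 (limma, Benjamini-Hochberg adjusted p 0.231) and was higher in 2 of 2 pairs.

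**Figure D3:**
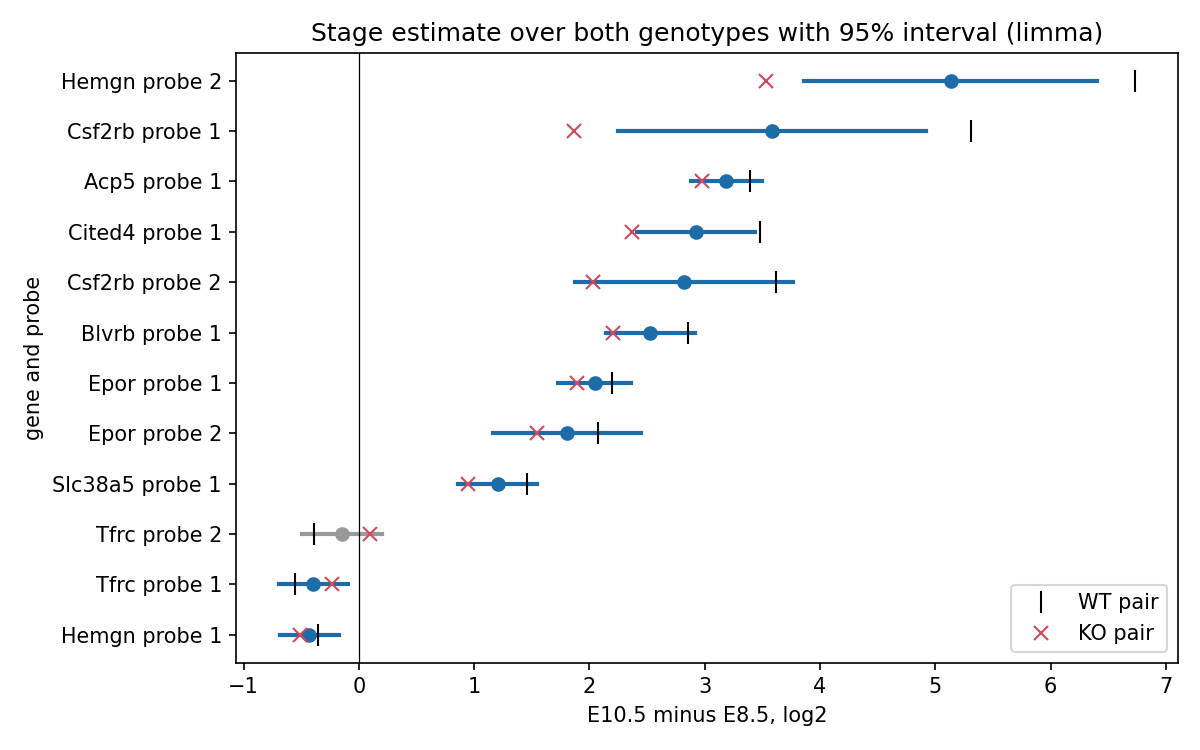
Stage estimate (E10.5 minus E8.5, log2) of each tested probe of the 8 genes with its 95% interval from limma, the WT pair as a bar and the pair labelled Dyrk2−/− (KO) as a cross. Blue estimates passed the Benjamini-Hochberg threshold and the grey one did not. Probe 2 of Csf2rb entered the test through the E10.5 arrays alone, so that nothing is read from its direction. The estimates run from −0.43 for probe 1 of Hemgn to 5.13 for its probe 2.

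By gene lists, at the brightest probe, the same limma test with Benjamini-Hochberg adjustment over all probes called 4 of 16 genes of the erythropoietin pathway higher at E10.5 and 5 lower. Of 12 progenitor receptor and ligand genes 3 were higher and 4 lower, and of 3 tested genes of the beta chain family 2 were higher and 0 lower. For iron 5 of 18 were higher and 1 lower, for the Slc38 family 1 of 9 higher and 3 lower, and for red cell carriers 11 of 20 higher and 4 lower. For heme degradation and redox 3 of 22 were higher and 5 lower, for acid phosphatases 0 of 3 in either direction, and for Cited relatives and partners 1 of 8 higher and 4 lower. In the lists of red cell products, 8 of 8 globin genes, 7 of 11 heme synthesis genes, 9 of 12 membrane genes and 9 of 15 blood transcription factors were higher, and 0, 0, 1 and 1 were lower. These list counts were taken with the 75th percentile scaling alone. Genes well above background on the E10.5 arrays alone also entered this test, through the stage where they are high, and nothing is read from their direction.

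The products of red cells give the setting of these values. The summed globin level was 16.7, 379, 1397 and 1623 times the 75th percentile, led by *Hbb-bh1*, at levels of 3.37, 7.15, 8.19 and 8.40. At E8.5, 7 of 7 globin genes compared were higher on the array labelled *Dyrk2*-/- and 0 lower, and at E10.5 3 of 8 were higher and 0 lower, with medians of 4.94 and 0.39. The E10.5 count became 1 without scaling and 4 with the spike-in scaling, and the E10.5 median lay between 0.26 and 0.55. *Gata1* had levels of −4.01, 0.26, 0.98 and 2.21, and *Klf1* of −4.93, −2.82, −1.32 and −0.00, the first of them not well above background. Of blood transcription factors 6 of 14 were higher and 0 lower at E8.5, and 8 of 15 higher and 1 lower at E10.5, with medians of 0.33 and 0.60, the first becoming −0.21 with the spike-in scaling, where 5 were higher and 2 lower. Without scaling 6 of 15 were higher and 2 lower at E10.5. Of red cell membrane genes 7 of 11 were higher at E8.5 and 7 of 12 at E10.5, with 0 lower and medians of 1.35 and 0.93. With normexp 5 membrane genes were higher at E8.5, with a median of 0.57, with the spike-in scaling 6, with a median of 0.81, and without scaling 1 was lower at E10.5. Of heme synthesis genes 2 of 11 were higher at E8.5 and 5 of 11 at E10.5, with 0 lower and medians of 0.18 and 0.52, the first becoming −0.08 without scaling and −0.37 with the spike-in scaling, where 2 were lower. At E10.5 the higher heme synthesis genes were 4 without scaling and 7 with the spike-in scaling. How much of the genotype difference in the 8 genes goes with the red cell signal as a whole was not tested.

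Markers of other cell types were read for the same arrays. Of 12 megakaryocyte and platelet markers 5, 4, 12 and 12 were well above background, with summed levels of 3.93, 3.53, 16.0 and 14.6, led by *Thbs1*. The defining *Pf4* was not well above background at E8.5 on either array, and 0 of 5 markers at E8.5 and 0 of 12 at E10.5 were past 1.5-fold between genotypes. In this list and in the macrophage list, 12 of 12 and 13 of 14 genes were higher at E10.5 in the limma test (Benjamini-Hochberg), and 0 were lower. Only 5 of the 12 and 6 of the 14 were well above background on an E8.5 array. Most thus entered the test through the E10.5 arrays alone, which largely set their direction, and nothing is read from these counts. Of 11 adult leukocyte markers 5, 3, 5 and 5 were well above background, summing to 4.34, 4.92, 4.83 and 4.85, led by *Ptprc*, and *S100a8* and *S100a9* were not on any array. Of these, 0 of 5 were higher and 1 lower at each stage. Of 8 mast cell and basophil markers 3, 3, 4 and 4 were well above background, summing to 1.08, 0.977, 1.24 and 0.921, led by *Gata2*, with *Cpa3* near background on all arrays. Among them 0 were higher at either stage and 1 lower at E8.5. Of 5 markers of adult red cells 1, 3, 5 and 5 were well above background, summing to 0.137, 1.01, 37.8 and 59.8, led by *Hbb-bt*, and 3 of 4 at E8.5 and 2 of 5 at E10.5 were higher, with 0 and 1 lower, and without scaling 1 was higher and 2 lower at E10.5.

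All 12 endothelial markers were well above background on every array, summing to 22.2, 27.6, 28.0 and 26.7, led by *Kdr*. At E8.5 2 of 12 were higher and 0 lower, and at E10.5 0 were past 1.5-fold, with medians of 0.24, which became −0.30 with the spike-in scaling, and −0.08, which became 0.08. The 2 higher became 0 with the spike-in scaling, and 1 with normexp and without scaling. Of 14 yolk sac endoderm markers 14, 14, 13 and 12 were well above background, summing to 80.7, 50.9, 30.3 and 25, led by *Afp*. Of these 0 were higher and 8 of 14 lower on the array labelled *Dyrk2*-/- at E8.5, with a median of −0.61, and 0 of 13 were past 1.5-fold at E10.5. Yolk sac tissue and the genotype cannot be told apart at E8.5. Of 12 trophoblast and decidua markers 4, 5, 3 and 4 were well above background, summing to 15.7, 10.4, 18.7 and 22.9, led by *Gcm1*, while *Tpbpa* was near background on all arrays. In this list, 2 of 5 were higher and 2 lower at E8.5, and 0 of 4 past 1.5-fold at E10.5. Of 8 hepatoblast markers 7 were well above background on each array, summing to 67.2, 66.8, 108 and 109, led by *Dlk1*, with *Alb* near background at E8.5, and 0 of 7 were higher and 3 lower at E8.5 and 0 past 1.5-fold at E10.5. The 8 heart markers, led by *Myh6*, summed to 291, 294, 161 and 164, and the 8 neural markers, led by *Nes*, to 20.1, 20.6, 64.9 and 50.9. Of the heart markers 0 were past 1.5-fold at either stage, and of the neural markers 1 of 7 was higher at E8.5, where the spike-in scaling gave 0 higher and 4 lower, and 1 of 8 lower at E10.5. Of 10 housekeeping genes, led by *Ppia*, 0 were past 1.5-fold at either stage. At E8.5 the spike-in scaling raised the lower genes to 13 for yolk sac endoderm, 6 for hepatoblasts, 3 for heart, 3 for housekeeping, 3 for trophoblast, 2 for megakaryocytes, 2 for leukocytes and 2 for mast cells. At E10.5, without scaling, 4 yolk sac endoderm, 3 neural, 2 mast cell and 1 hepatoblast genes were lower, and with the spike-in scaling 2 trophoblast genes were higher. The part of these tissues in the values of the 8 genes was not tested.

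The genes were compared with each other by the shape of their levels. Over the 4 arrays, with each gene's mean subtracted, the Euclidean distance was 0.52 between *Epor* and *Blvrb*, 0.67 between *Cited4* and *Blvrb* and 0.68 between *Acp5* and *Blvrb*. It was 1.13 between *Epor* and *Cited4*, 1.14 between *Epor* and *Acp5*, and 1.99 between *Slc38a5* and *Acp5*. *Tfrc* and the repeat probe of *Hemgn* lay the closest, at 0.36, and *Tfrc* stood at 2.64 from *Epor*. Distances of *Csf2rb* and of the other *Hemgn* probe rest on a WT E8.5 value near background and are rough, such as 2.80 between *Csf2rb* and *Epor*. Among 18799 other genes well above background on all arrays, the nearest to *Epor* were *Pdia2* (0.35), *6030468B19Rik* (0.37) and the transcript ENSMUST00000183172 (0.43). *Sptb* (0.38) was nearest to *Slc38a5*, *Icam4* (0.15) to *Acp5*, *Redrum* (0.09) and *Mrap* (0.11) to *Cited4*, *Ifi35* (0.23) to *Blvrb* and *Ankrd33b* (0.05) to *Tfrc*. With the same caution, *Ahsp* (0.21) and *Gata1* (0.34) were nearest to *Csf2rb*. For *Hemgn* the nearest was *Lsm12* (0.00285) at the repeat probe and *Alas2* (0.39) and *Slc4a1* (0.47) at the other, whose WT E8.5 value is near background. The mean of the 8 genes, with *Csf2rb* and the repeat probe of *Hemgn* included, was nearest to *Sptb* (0.44) and *Slc25a37* (0.47). With 4 arrays such distances describe the order and size of the steps and no more.

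*Epor* and *Acp5* lie 168 kb apart on chromosome 9 in mm9, with 10 named genes between them. Of these, 9 were well above background, and under the percentile scaling 0 of the 9 were past 1.5-fold between genotypes at either stage. The spike-in scaling moves each E8.5 difference by −0.55, which takes *Cnn1*, at −0.32, and others of the 9 past this fold, lower. Leaving out the scaling moves each E10.5 difference by −0.13, which takes *Elavl3*, at −0.50, past it, lower. *Elavl3*, a neural gene among the 9, had levels of −2.51, −2.53, 2.93 and 2.43. Within 500 kb of *Slc38a5*, 26 genes were compared at E8.5 and 1 was higher, *Gata1*, which lies 321 kb away and was also the 1 gene of 25 higher at E10.5, where 2 were lower. Within 500 kb of *Csf2rb*, 4 of 20 genes were higher and 1 lower at E8.5, and 2 of 23 higher and 2 lower at E10.5, with *Csf2rb2* and *Ncf4* higher at both stages. *Ncf4*, which lies 88.3 kb away and encodes a subunit of the phagocyte oxidase, had levels of −4.71, −2.81, 0.08 and 1.0. Near *Cited4* 0 of 17 genes at E8.5 and 0 of 18 at E10.5 were past 1.5-fold. Near *Blvrb* 0 of 32 were at E8.5, and 1 of 31 was higher at E10.5. Near *Tfrc* 0 of 23 were higher and 3 lower at E8.5, and 1 of 24 higher and 0 lower at E10.5. Near *Hemgn* 2 of 17 were higher at E8.5 and 1 of 16 at E10.5, with 0 lower. Near *Epor* 1 of 39 was higher and 1 lower at E8.5, near *Acp5* 1 of 32 and 1, and 0 near either at E10.5. The counts within 500 kb of each gene were taken under the percentile scaling alone. Over all genes at E8.5, the spike-in scaling turned 1359 lower into 9916, so that the low counts of lower neighbours need not hold under it. Genes named here for their difference were chosen after their values were seen.

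The promoters of the 8 genes, whose levels did not all follow the same order, were read for GATA-type and CACC-type words. RefSeq (build GRCm38.p6) gave 11 promoters of 300 bases, from 250 before to 50 after the transcript start, for 7 of the 8 genes, and none for *Csf2rb*. The GATA-type words AGATAA and AGATAG with TGATAA and TGATAG and the CACC-type word CCNCNCCC were searched on both strands, and a match of one type can share at most an end base with a match of the other. A GATA-type word stood in 5 of the 11 promoters, 1 each of *Epor*, *Slc38a5*, *Acp5*, *Blvrb* and *Hemgn*, and in 29.8% of 32851 promoters. The CACC-type word stood in 10 of the 11, of 7 genes, and in 49.5% of all. The *Tfrc* promoters among them overlap and share matches, so that the 11 are not all separate. Both stood in the same promoter in 4 of the 11, of 4 genes, and in 10.2% of all promoters. These 4 promoters are printed 5′ to 3′ on the strand of the gene, with the matches in capitals. The *Acp5* promoter is the first of 3 in the table, and which of them these embryos used is not known from the arrays. In *Hemgn* and in part of *Slc38a5* the CACC-type match falls in a run of G. A match is a description of letters and shows no binding.
Epor, chr9:21963527-21963826, minus strand: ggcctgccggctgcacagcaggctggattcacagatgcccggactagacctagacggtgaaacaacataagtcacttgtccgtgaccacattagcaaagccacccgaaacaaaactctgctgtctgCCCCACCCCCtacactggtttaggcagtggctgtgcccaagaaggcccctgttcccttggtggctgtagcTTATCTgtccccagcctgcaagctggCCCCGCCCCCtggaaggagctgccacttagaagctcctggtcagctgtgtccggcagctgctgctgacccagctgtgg
Slc38a5, chrX:8271131-8271430, plus strand: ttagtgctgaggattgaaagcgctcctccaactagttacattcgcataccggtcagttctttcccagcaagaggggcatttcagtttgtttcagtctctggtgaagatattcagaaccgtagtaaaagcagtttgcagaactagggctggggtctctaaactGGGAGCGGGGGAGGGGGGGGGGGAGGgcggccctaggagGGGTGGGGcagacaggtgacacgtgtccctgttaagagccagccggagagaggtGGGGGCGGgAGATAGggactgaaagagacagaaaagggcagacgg
Acp5, chr9:22135697-22135996, minus strand: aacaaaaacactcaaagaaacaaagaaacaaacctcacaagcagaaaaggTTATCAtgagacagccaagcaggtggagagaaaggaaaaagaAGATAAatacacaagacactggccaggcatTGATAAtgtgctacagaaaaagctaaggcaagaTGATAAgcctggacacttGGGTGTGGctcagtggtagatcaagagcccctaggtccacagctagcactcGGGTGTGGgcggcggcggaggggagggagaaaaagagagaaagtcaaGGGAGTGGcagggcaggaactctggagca
Hemgn, chr4:46404134-46404433, minus strand: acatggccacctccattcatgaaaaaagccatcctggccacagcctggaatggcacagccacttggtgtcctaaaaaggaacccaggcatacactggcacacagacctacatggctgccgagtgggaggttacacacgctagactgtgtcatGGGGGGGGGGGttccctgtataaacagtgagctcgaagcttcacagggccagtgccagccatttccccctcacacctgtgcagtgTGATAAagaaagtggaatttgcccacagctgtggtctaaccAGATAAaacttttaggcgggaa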

How the data were processed

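For every array the authors deposited scanner files, in which the processed intensity is on a linear scale, with background and spatial trend removed and no scaling from array to array, and a table of linear intensity values whose 4 columns share 1 distribution. Per the file headers, the raw mean and background intensity of each spot stand beside it. The file headers name Agilent Feature Extraction 10.7.1.1 and the submitters' notes 9.5.1.1. The scanner output was used. Outlier spots were left out, the log2 processed intensity of a probe's spots was averaged, and the 75th percentile of the array was subtracted. A probe counts as well above background when no fewer of its spots carry that mark than lack it. A gene was its brightest probe, named through RefSeq where possible, and was compared at 1.5-fold when 1 or both arrays of a pair showed it well above background. The stage was tested with limma 3.58.1 (lmFit, eBayes with an intensity trend) and Benjamini-Hochberg adjustment at 0.05, and the steps were tested on simulated data. The simulated data for the stage test held no genotype effect and independent noise, so that they do not check its error on these arrays.

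The genes named are the 8 genes at every probe, from each list the 4 brightest of those well above background at both stages and a few partners chosen by role, the 5 genes nearest in pattern, of which the nearest are given, and genes within 500 kb. The 8 genes and the lists were chosen with earlier results of these data known. Alternatives were quantile normalization, normexp with an offset of 50, spike-in or no scaling, the deposited table, other filters on dim probes, a 2-fold threshold, the mean over probes and no intensity trend. Python 3.11.15 with pandas 2.3.3 and numpy 2.4.6, and R 4.3.3 with the data.table package (1.17.8), were used.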

Additional observations from a re-analysis of the deposited data

Results flagged for a closer look

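At 2 probes the array labelled *Dyrk2*-/- was on opposite sides of WT at the 2 stages. The dimmer *Tfrc* probe differed by −0.0527 (log2, labelled *Dyrk2*-/- minus WT) at E8.5 and by 0.44 at E10.5. The repeat probe of *Hemgn* differed by 0.12 at E8.5 and by −0.0310 at E10.5. What drew attention was the opposite direction at the stages. With 1 array per group the difference between the stages was not tested, and the first *Tfrc* value and both *Hemgn* values are within the spread between spots.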

How the results depend on the processing

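No paired analysis was possible because each group has 1 array, other than the genotype block of the limma stage test, in which each genotype gives 1 pair of arrays. The count of the 8 genes past 1.5-fold was 6 under most alternatives in each comparison. It was 5 of 7 genes at E8.5 and between the WT stages with the filter on both arrays, 7 at E10.5 with the spike-in scaling, 6 higher and 1 lower (*Tfrc*) between the WT stages with the same scaling, 5 between the stages labelled *Dyrk2*-/- at 2-fold, and 7 in every comparison with the mean over probes or with *Hemgn* at its other probe, an alternative chosen after seeing the data. The 2-fold threshold gives no median, and the filters on both or all arrays leave out *Csf2rb* wherever its WT E8.5 value is used.

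The median log2 difference at E8.5 (1.56) became 1.34 with normexp, 1.01 with the spike-in scaling and 1.30 without scaling. At E10.5 (1.07) it became 1.23 with the spike-in scaling and 0.94 without scaling. Between the WT stages (2.52) it became 2.10 with normexp, 2.70 without scaling, 2.19 with the filter on both arrays, 2.77 with the mean over probes and 3.12 with *Hemgn* at its other probe. Between the stages labelled *Dyrk2*-/- (1.88) it became 1.70, 2.52, 2.19, 1.62 and 2.05 with normexp, the spike-in scaling, no scaling, the mean over probes and *Hemgn* at its other probe.

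In the limma stage test (Benjamini-Hochberg), 11397 probes were called, and 2633 with the spike-in scaling, 6437 without the intensity trend and 6786 of 21044 genes with the mean over probes. Genes of the 8 called lower numbered 2, and 0 with quantile normalization, the spike-in scaling, no scaling, the deposited table, no trend and the mean over probes, and 1 with normexp and with *Hemgn* at its other probe. Genes called higher numbered 6, and 5 with the spike-in scaling, with the filter on all 4 arrays and without trend, and 7 with the mean over probes and with *Hemgn* at its other probe. The stage effect of *Hemgn* (−0.43) reversed to 2.35 with the mean over probes and 5.13 at its other probe. With each of the 8 genes counted once under each alternative that has a value, 63 stage values kept their direction and call, 14 missed the threshold and 2 reversed. Of the differences counted in the same way, 24 of 71 at E8.5, 19 of 72 at E10.5, 21 of 71 between WT stages and 26 of 72 labelled *Dyrk2*-/- moved by more than the spread between spots. The shifts under spike-in and no scaling follow from a constant per array. The cause of the others, the reversal of *Hemgn* included, was not tested.

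The values rest on 1 array per group, so that embryo to embryo differences, dissection, sex at E10.5 and genotype cannot be told apart, nor sex and stage in the pair labelled *Dyrk2*-/-. Values near background at E8.5 in WT (*Csf2rb*, *Csf2rb2*, *Klf1*, *Hemgn* at its other probe, the dimmer *Epor* probe) give bounds only. The labels were not checked by the *Dyrk2* transcript.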
